A study of Rattus norvegicus with 61 samples.

Results

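The 6 samples of neutrophils sorted from rat blood were compared with the 5 samples of whole blood cells, 11 of the 61 samples of the series, and were chosen by their sample titles. The question was which transcripts sorting raises, which it removes, and which transcripts of whole blood no sorted cell type holds. All these rats were untreated wild-type male Sprague-Dawley rats, given by the study as 6 weeks old at purchase, and RNA sequencing measured their transcripts. Whole blood cells (WBC) were the cells left after heart blood had been lysed with ACK buffer to remove erythrocytes and washed. Neutrophils (Neu) were live cells, negative for the dye 7-AAD, that carried CD45 and CD11b, lacked CD3, CD45RA and CD161, were intermediate for CD43 and had a high side scatter. Sorted cells of every type were also stained, passed through the sorter and collected in culture medium with serum before RNA isolation. What sorting raised or removed therefore covers both the choice of cells and this handling, which cannot be told apart here. Levels in the other 5 sorted types, with 6 samples of each, were used to describe where a transcript is held. Of these, monocytes (Mon) came from blood, with low side scatter, and CD4 T, CD8 T, B and NK cells came from spleen. No sorted sample is therefore a lymphocyte of blood, and platelets, erythroid cells, basophils, eosinophils and dendritic cells were not sorted as types of their own. Spleen (5 samples) and vehicle-treated control liver (5 samples) gave 2 further reference levels.

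Neutrophils are short-lived granulocytes that leave the bone marrow with their granules already filled, kill microbes by phagocytosis and oxidants, and are the first leukocytes to enter injured tissue. They share the myeloid lineage with monocytes, and many genes of phagocytosis, adhesion and innate sensing are used by both. Lymphocytes make up a large part of the white cells in rat blood. Whole blood cells also hold neutrophils, so the comparison sets a cell type against a mixture that includes it.

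Transcripts are known here by Ensembl transcript identifiers, which the files do not pair with gene names. The defining markers of neutrophils could therefore not be looked up, and the identity of the sorted cells rests on the label and the gate. Levels are given as CPM, the estimated count of a transcript scaled to a sample total of 1000000. A CPM is compared between samples and not between transcripts, since it is not known whether length was divided out. Totals ran from 3429971 to 13576585 estimated counts in neutrophils and from 9961625 to 11273769 in whole blood cells. The low value belongs to neutrophil replicate 5, and the other 5 neutrophil samples had at least 10154776. The correlation r of log2(CPM + 1) over transcripts was 0.945 to 0.973 between neutrophil samples, 0.961 to 0.971 between whole blood samples and 0.891 to 0.946 between the groups. Transcripts are not independent replicates, and these r describe likeness only. Neutrophil replicates 1 and 2 had a median r of 0.933 (0.920 to 0.946) to the 5 whole blood samples. The other 4 neutrophil samples had 0.915 (0.891 to 0.943), so the ranges overlap. By the number of transcripts at 1 CPM or more, replicates 1 and 2 lay farthest from whole blood, with 12696 and 12785. Transcripts held by liver describe stray liver signal, and not carryover between blood cell types. Of 65 transcripts at 1000 CPM or more in control liver and under 2% of that level in every sorted type, 60 were under 0.1% of the liver level in whole blood cells, and 40 were at 0 in all 5 samples. Whole blood cells include sorted types, so the choice itself favours low values there. Nothing states whether replicates are separate animals, so p-values measure the spread between these samples only.

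On CPM from the sample totals, sorted neutrophils held fewer transcripts at 1 CPM or more than whole blood cells. The number at 1 CPM or more was 12990 ± 231 (SD, n = 6) in neutrophils and 13458 ± 70.6 (SD, n = 5) in whole blood cells. The lowest whole blood sample, at 13345, lay above the highest neutrophil sample, at 13281. The difference of -467 transcripts had a p of 0.00433 by a two-sided exact permutation test, the smallest that the 462 splits of these samples allow. The count depends on scaling and was not repeated with TMM normalization factors. Neutrophil replicates 1 and 2, which held the fewest transcripts, had the lowest of these factors, 0.828 and 0.846. The share of the total in the 10 most abundant transcripts did not separate the groups. It was 16.1% ± 1.74 (SD, n = 6) in neutrophils and 15.9% ± 5.41 (SD, n = 5) in whole blood cells, with an exact permutation p of 0.961. Whole blood replicate 1 was the highest sample, with 24.7%. The 100 most abundant transcripts took 40.5% ± 3.11 (SD, n = 6) in neutrophils and 46.7% ± 4.50 (SD, n = 5) in whole blood cells, with an exact permutation p of 0.0303.

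About as many transcripts were higher as were lower in neutrophils, but the higher ones moved further. By edgeR's quasi-likelihood test at an adjusted p under 0.05, 6583 of 13454 transcripts tested differed, which is 48.9%. Of these, 3386 were higher in neutrophils (25.2% of those tested) and 3197 were lower (23.8%). Among the higher ones 1215 differed by at least 2-fold, 299 by at least 4-fold and 54 by at least 8-fold. Among the lower ones the corresponding numbers were 440, 69 and 23. The transcripts that were higher took 51.4% ± 4.64 (SD, n = 6) of the neutrophil total and 26.5% ± 4.08 (SD, n = 5) of the whole blood total. Those that were lower took 19.9% ± 2.75 (SD, n = 6) of the neutrophil total and 37.4% ± 5.54 (SD, n = 5) of the whole blood total. These 2 shares follow from how the transcripts were chosen and are given as a description of size. All 6 neutrophil samples lay above all 5 whole blood samples for 1310 of the 3386 higher transcripts, against 9.76% of all tested. All 6 lay below for 2518 of the 3197 lower transcripts, against 21.4% of all tested. Overlap was judged on CPM from the sample totals, without the TMM factors that the calls used. Neutrophils lie lower on that scale, so 1310 and 2518 do not compare how consistent rises and falls were. The balance of directions depends on scaling. With TMM factors 51.4% of the called transcripts were higher and the median log2 fold change of all tested was -0.07. With the sample totals alone 2240 were higher and 4316 lower, so 34.2% of the called transcripts were higher, and the median of all tested was -0.22.

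**Figure D1:**
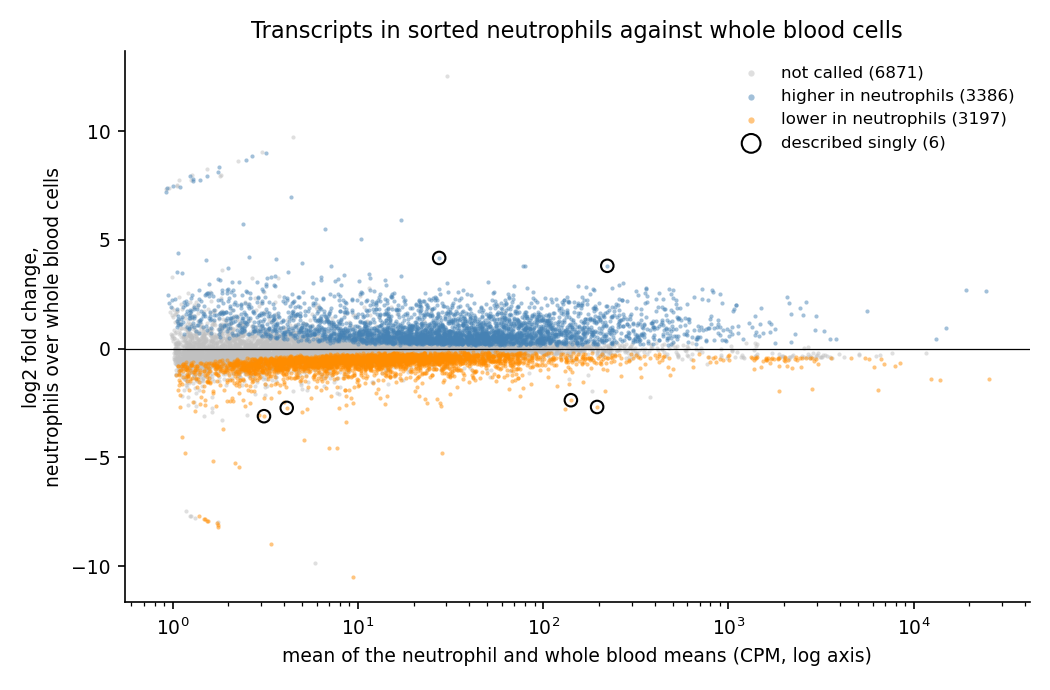
Each point is 1 of 13454 transcripts, with the mean of both group means on the x axis (CPM, log axis) and the log2 fold change of neutrophils over whole blood cells on the y axis. Blue points (3386) were higher and orange points (3197) lower at an adjusted p under 0.05, circles mark the 6 transcripts described singly, and the points beyond 7 in either direction are transcripts at 0 in every sample of 1 group, whose fitted fold change depends on the prior count.

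Among transcripts of at least 50 CPM in the higher group, with no overlap between groups, the strongest rises were those of ENSRNOT00000093575 and ENSRNOT00000054875. In all, 755 transcripts met those conditions. ENSRNOT00000093575 ranged in neutrophils from 23.2 CPM through a median of 40.4 CPM to 128 CPM, and it stood at 2.61, 3.10, 4.98, 3.91 and 2.49 CPM in whole blood replicates 1 to 5. The groups lay apart, and the highest neutrophil value was that of replicate 1, which exceeded the next sample, at 49.1 CPM, by more than any other gap in the group. The log2 fold change was 4.17 ± 0.55 (SE, 6 against 5 samples), with an adjusted p of 0.000100 in edgeR. Its mean was 5.05 CPM in monocytes, 3.42 CPM in whole blood cells and at most 0.423 CPM in the 4 lymphocyte types. ENSRNOT00000054875 ranged in neutrophils from 304 CPM through a median of 363 CPM to 706 CPM. Whole blood replicates 1 to 5 had 22.0, 28.5, 45.0, 41.1 and 33.2 CPM. Again the groups lay apart and neutrophil replicate 1 was the high sample. The log2 fold change was 3.80 ± 0.30 (SE, 6 against 5 samples), with an adjusted p of 6.54e-06 in edgeR. Its mean was 43.6 CPM in monocytes, 13.5 to 18.0 CPM in the lymphocyte types and 35.0 CPM in spleen.

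Without neutrophil replicate 1 the log2 fold change was 3.57 for ENSRNOT00000093575 and 3.51 for ENSRNOT00000054875, and both remained past the threshold.

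Transcripts that sorting raised were mostly ones that monocytes held more of, by whatever margin, than any splenic lymphocyte type did. Among the 5 other sorted types, monocytes had the highest mean CPM for 71.8% of the higher transcripts and for 36.6% of all tested. Among the 755 higher transcripts of at least 50 CPM without overlap, the 20 strongest rises had log2 fold changes of 2.70 to 4.17, and monocytes were the most abundant other type for 18 of them. Of the transcripts with monocytes as that type, 49.4% were higher in neutrophils and 5.42% were lower. A lymphocyte type was the most abundant for 25.5% of the higher transcripts. NK cells made up the greatest part of these, with 12.6% of the higher transcripts, and CD8 T cells the smallest, with 2.33%.

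For most transcripts that sorting lowered, 1 of the 4 lymphocyte types was the most abundant other type, by whatever margin. This held for 91.2% of the lower transcripts, against 62.4% of all tested, and monocytes were that type for 8.35%. Many of these margins are small, since 796 of the 3197 lower transcripts were held alike by all 5 other types (the even transcripts below). The share of transcripts that were lower was 44.9% where the CD8 T type was the most abundant, 37.8% for the B type, 35.6% for the CD4 T type and 25.8% for the NK type. Among the 425 lower transcripts of at least 50 CPM in whole blood cells without overlap, the 20 strongest falls had log2 fold changes of -2.69 to -1.29. B cells were the most abundant other type for 16 of these 20, against 9.74% of all tested. In bulk RNA, fewer cells of a type and less RNA per cell cannot be told apart.

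**Figure D2:**
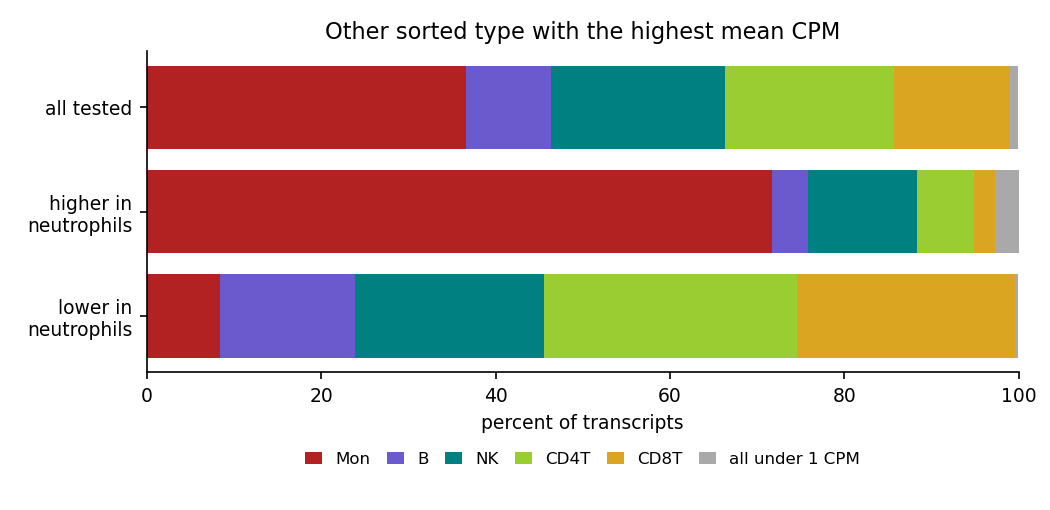
Bars give the percent of transcripts by the other sorted type with the highest mean CPM (Mon, B, NK, CD4T, CD8T, or none where all 5 are under 1 CPM), for all 13454 tested and for those higher or lower in neutrophils. Monocytes take 71.8% of the higher transcripts and 8.35% of the lower ones.

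To describe the level of each cell type's transcripts in neutrophils and whole blood cells, transcripts were grouped by the 30 samples of the other 5 types, without any neutrophil or whole blood sample. A level found in sorted neutrophils may come from other cells left in the sort or from neutrophils themselves, which cannot be told apart here. A group led by a type holds transcripts whose mean reached 10 CPM in that type and at least 2 times the mean of each of the other 4. T-led transcripts met this in both CD4 and CD8 T cells against monocytes, B cells and NK cells. Lymphoid-shared transcripts met it in all 4 lymphocyte types against monocytes. Even transcripts had at least 10 CPM in all 5 types and less than 1.5-fold between the highest and lowest. Counts below are to be read against 25.2% higher and 23.8% lower over all transcripts tested.

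B-led transcripts were the most depleted group. B cells make antibodies and present antigen, and the gate excludes cells with CD45RA, which they carry. Of 84 such transcripts, 68 (81.0%) were lower in neutrophils and 0 were higher, with a median log2 fold change of -1.27 against -0.07 over all tested. In edgeR, 71 were lower and 0 higher at an unadjusted p under 0.05. In DESeq2, 68 were lower and 0 higher at an adjusted p under 0.05. Without whole blood replicate 1, edgeR called 2 of them higher. The summed level of the 84 was 712 CPM in the lowest neutrophil sample, 1139 CPM at the median and 1396 CPM in the highest. Whole blood replicates 1 to 5 had 2614, 3107, 2103, 2551 and 2968 CPM, so that every neutrophil sample lay below every whole blood sample. The median of these transcripts in neutrophils was 10.2% of their level in sorted B cells, against 27.4% in whole blood cells and 63.4% in spleen.

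T-led transcripts also fell. T cells carry the CD3 complex that the gate excludes. Of 41 such transcripts 29 (70.7%) were lower and 1 was higher, with a median log2 fold change of -0.84. Their summed level was 754 to 1102 CPM in neutrophils (median 988) and 1867, 1746, 1676, 1935 and 1818 CPM in whole blood replicates 1 to 5, without overlap. Whole blood cells held a median of 52.4% of the level in sorted T cells, close to the 53.6% of spleen, and neutrophils held 25.3%.

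Lymphoid-shared transcripts behaved similarly. Of 513 tested among 519, 336 (65.5%) were lower and 14 higher, with a median log2 fold change of -0.80. Their summed level was 8461 to 12788 CPM in neutrophils (median 11733). In whole blood replicates 1 to 5 it was 19126, 23317, 17127, 20082 and 26753 CPM, and no neutrophil sample reached the lowest of these. Like the B-led and T-led sums, these use CPM from the sample totals. The nearest samples were neutrophil replicate 1, with a TMM factor of 0.828, and whole blood replicate 3, with 1.14. These factors act against the gap, so the separation may not hold with TMM factors, with which it was not judged. Neutrophils held a median of 22.5% of the mean over the 4 lymphocyte types, whole blood cells 45.4% and spleen 99.7%.

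NK-led transcripts showed little depletion. NK cells are cytotoxic lymphocytes marked in rats by CD161, which the gate excludes. Of 128 tested among 141, 30 (23.4%) were lower, close to the 23.8% over all transcripts, and 17 were higher. The median log2 fold change was -0.27. The summed level was 1848 to 2504 CPM in neutrophils (median 2278) and 2158, 2554, 2408, 2446 and 2342 CPM in whole blood replicates 1 to 5, and the groups overlapped. Whole blood cells were already low in these transcripts, at a median of 15.4% of the level in sorted splenic NK cells, against 11.1% in neutrophils and 24.8% in spleen. The 30 that were lower had a median of 11.6% in neutrophils and 20.4% in whole blood cells. The 17 that were higher stood at a median of 61.2% of the NK level in neutrophils and 25.3% in whole blood cells, and 5 of them were above sorted NK cells.

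Even transcripts, held alike by the 5 other types, moved in both directions. Of 3411, 833 (24.4%) were higher and 796 (23.3%) lower, near the shares over all transcripts, and the median log2 fold change was -0.02. They stood at a median of 74.3% of the mean over the 5 types in neutrophils and 84.6% in whole blood cells. With the sample totals alone, 347 were higher and 1221 lower.

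**Figure D3:**
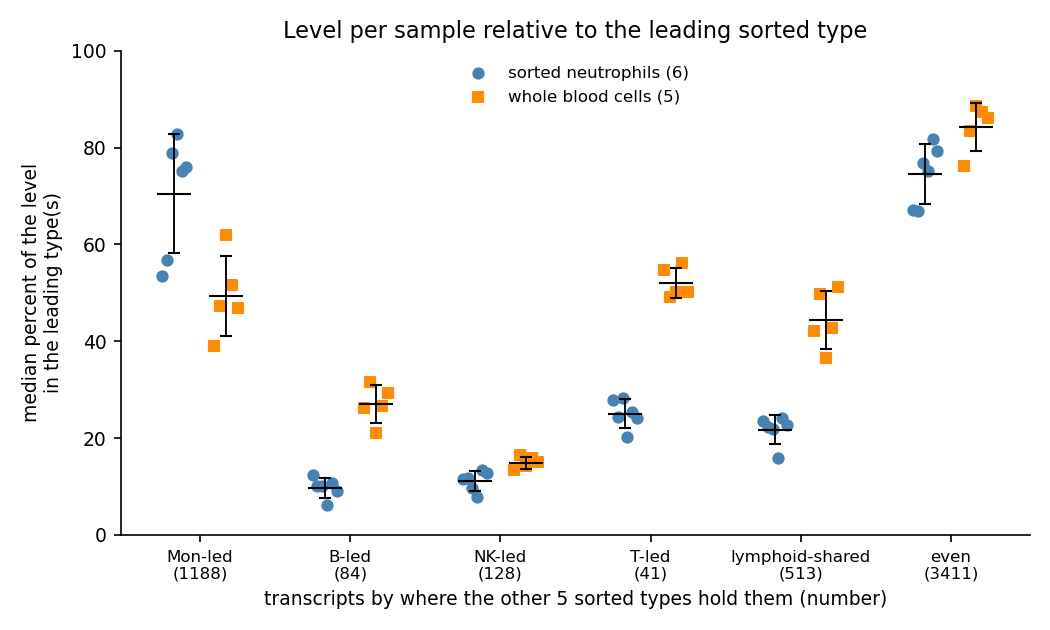
For each group of transcripts (number tested in brackets), a point is 1 sample and its height the median, over the group's transcripts, of the percent of the level in the leading type or types, with the mean and SD over samples in black. Neutrophil samples (blue circles) lie below whole blood samples (orange squares) for B-led, T-led and lymphoid-shared transcripts. Neutrophil replicates 1 and 2 are the lowest of the 6 for Mon-led and for even transcripts. All values use CPM from sample totals.

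Among the groups defined above, Mon-led transcripts were the one that rose. Monocytes are blood phagocytes that become macrophages and dendritic cells in tissue, and their gate asked for a low side scatter and, unlike that of neutrophils, set no limit on CD43. Of 1188 tested among 1190, 732 (61.6%) were higher in neutrophils and 41 (3.45%) lower, with a median log2 fold change of 0.65. They summed to 259150 CPM in the lowest neutrophil sample, 302047 CPM at the median and 336632 CPM in the highest. Whole blood replicates 1 to 5 had 90841, 116719, 165317, 129654 and 121477 CPM. Every neutrophil sample lay above every whole blood sample in this sum. The median transcript stood at 70.6% of its monocyte level in neutrophils and 49.3% in whole blood cells. Per sample the median percent was 53.5% and 56.8% in neutrophil replicates 1 and 2 and 75.1% to 82.9% in replicates 3 to 6. Whole blood replicate 3 had the highest value of the whole blood samples, 61.9%, above neutrophil replicates 1 and 2. This order depends on scaling, since these percents use sample totals. The TMM factors were 0.828 and 0.846 for neutrophil replicates 1 and 2 and 1.14 for whole blood replicate 3. Even transcripts had a like order, with 67.1% and 66.9% in neutrophil replicates 1 and 2. They had 75.1% to 81.8% in neutrophil replicates 3 to 6 and 88.6% in whole blood replicate 3.

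The Mon-led group was not uniform. The 732 that were higher stood at a median of 107% of the monocyte level in neutrophils and 55.8% in whole blood cells, and 395 of them were more abundant in neutrophils than in monocytes. They made up 27.7% of the neutrophil total and 10.3% of the whole blood total. The 41 that were lower stood at 29.1% in neutrophils and 42.0% in whole blood cells, and 0 of them were more abundant in neutrophils than in monocytes. A further 415 were not called, at 34.0% in neutrophils and 38.0% in whole blood cells, so that both held similar parts of the monocyte level. The division by direction uses the contrast itself, and these values describe it.

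Among transcripts of at least 50 CPM in neutrophils, nearly none was held by neutrophils alone. With a mean of at least 50 CPM in neutrophils and each of the other 5 types under 2% of that mean, 2 transcripts were found, and these were chosen with their neutrophil values. The first stood at 35.8 CPM in the lowest neutrophil sample, 89.8 CPM at the median and 120 CPM in the highest. It had 14.6, 20.4, 42.9, 28.8 and 25.2 CPM in whole blood replicates 1 to 5, a mean of 31.7% of the neutrophil mean, and the groups overlapped at 1 value each. The second was at 365 CPM in neutrophil replicate 2 and at 0 in every other neutrophil and whole blood sample. Widening the limit to 25% of the neutrophil mean, after seeing the data, gave 86 neutrophil-led transcripts. Whole blood cells held a median of 23.2% of their neutrophil level, monocytes 14.4%, spleen 4.91%, NK cells 3.18%, B cells 2.60%, CD4 T and CD8 T cells 1.92% and 1.86%, and control liver 0.249%. In whole blood replicates 1 to 5 the median was 15.6%, 20.4%, 34.1%, 23.4% and 20.0%, so that replicate 3 was the highest, as it was for the Mon-led sum, and replicate 1 the lowest in both. With a limit of 50% there were 233 such transcripts, of which whole blood cells held a median of 30.2%. Without the floor of 50 CPM, 141 tested transcripts had a mean under 1 CPM in each of the 5 other types. Of these, 93 (66.0%) were higher in neutrophils than in whole blood cells and 14 were lower. They passed the filter of 1 CPM only through neutrophils or whole blood cells, so no test is drawn from these counts.

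Transcripts present in sorted neutrophils and near absent from whole blood cells were few. Means of at least 5 CPM in neutrophils and under 1 CPM in whole blood cells were found for 24 transcripts. Of these 14 were at 1 CPM or more in all 6 neutrophil samples, and 1 was so in a single sample. Monocytes were the most abundant other type for 16, and 7 were under 1 CPM in all 5 other types. The rule fixes their direction, so no test is drawn from them.

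Whole blood cells exceeded all 6 sorted types for few transcripts. No mixture of the 6 sorted profiles with shares adding to 1 can lie above each of them, nor below each of them. This holds for CPM from the sample totals, and transcripts above all 6 on that scale are ones whose whole blood level such a mixture does not reach. In 1 edgeR fit of 36 sorted and 5 whole blood samples, 15 of 14153 transcripts (0.106%) were higher in whole blood cells than in each of the 6 types, all at an adjusted p under 0.05, and 24 were so at an unadjusted p under 0.05. By means alone, 152 of the 14153 (1.07%) lay above all 6 types, 18 of them by at least 2-fold, while 1125 (7.95%) lay below all 6. By means alone and at any margin, whole blood cells thus left the range of such a mixture on both sides, more often below it. The lower side was not tested. A level above all 6 types does not by itself show that unsorted cells hold a transcript, and the cause was not tested. The remaining 12876 (91.0%) lay within the range of the sorted types. With no filter on low transcripts 38 of 23315 were called, and the 15 were among them. The fit used TMM factors, so its scale is not that of the mixture rule. With the sample totals alone it called 15 transcripts, of which 14 were shared with the calls above.

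The 15 fell apart by size. For 13 the whole blood mean was 5.02 to 8.24 times that of the highest sorted type, with a median of 6.33, and the other 2 exceeded it by 1.04 and 1.24 times. For all 13, each of the 5 whole blood samples lay above each of the 36 sorted samples, the choice of these transcripts having used the same samples. Neutrophils were the highest sorted type for 12 of the 13 and B cells for 1. The 13 stood in neutrophils at 12.1% to 18.2% of their whole blood level, with a median of 15.3%. The medians were 5.55% in B cells, 5.07% in NK cells and 4.69% in monocytes, and for the T types 2.38% (CD4) and 2.36% (CD8). Spleen and liver, which the rule did not use, gave medians of 10.8% and 7.05%. The spleen mean was below the whole blood mean for all 13, with 30.1% as the highest. In control liver 2 of the 13 were more abundant than in whole blood cells, 1 of them at 764 CPM against 15.2 CPM.

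The level of these 13 differed between whole blood samples. They summed to 598, 605, 1124, 948 and 1029 CPM in whole blood replicates 1 to 5, so that replicates 1 and 2 held the least. In neutrophils they summed to 70.4 CPM in replicate 1 and to 126 to 156 CPM in replicates 2 to 6. Spleen samples held 79.4 to 107 CPM, and the CD8 T cell samples 10.2 to 33.7 CPM. Marker genes of the cell types that were not sorted could not be matched to these identifiers, and the part of such cells in this group was not tested.

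**Figure D4:**
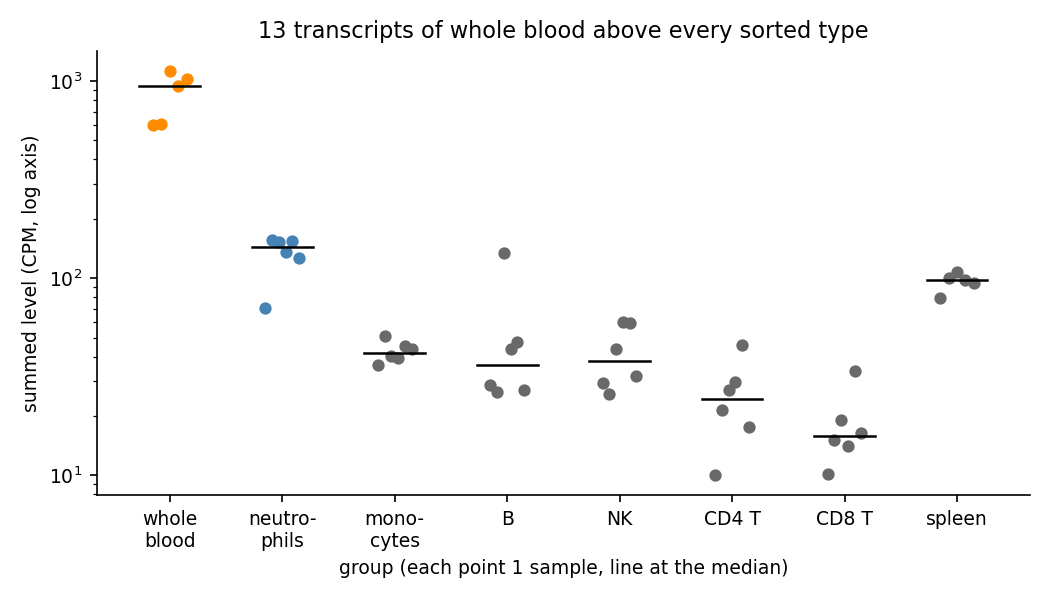
Each point is the sum of 13 transcripts in 1 sample (CPM, log axis), with a line at the group median. Whole blood samples lie between 598 and 1124 CPM, neutrophils between 70.4 and 156 CPM, spleen between 79.4 and 107 CPM and the other sorted types at most at 134 CPM.

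Both of the strongest falls among transcripts of at least 50 CPM without overlap belong to these 13. Among 425 transcripts that were lower without overlap and reached 50 CPM in whole blood cells, ENSRNOT00000074351 fell the most. It had 258, 230, 430, 401 and 396 CPM in whole blood replicates 1 to 5, the highest mean of the 13. In neutrophils it ranged from 24.1 CPM through a median of 51.5 CPM to 61.5 CPM. The groups lay far apart, with the lowest neutrophil value again in replicate 1, and the log2 fold change was -2.69 ± 0.20 (SE, 6 against 5 samples), with an adjusted p of 5.42e-06 in edgeR. Its mean was 33.7 CPM in spleen, 24.2 CPM in control liver, 15.5 CPM in monocytes and at most 12.7 CPM in the lymphocyte types.

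ENSRNOT00000033406 had 170, 163, 282, 284 and 305 CPM in whole blood replicates 1 to 5. In neutrophils it ranged from 17.6 CPM through a median of 41.5 CPM to 58.9 CPM, below every whole blood sample. The log2 fold change was -2.37 ± 0.28 (SE, 6 against 5 samples), with an adjusted p of 4.73e-05 in edgeR. Its mean was 29.5 CPM in spleen and 7.96 to 19.6 CPM in the 5 other sorted types.

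A transcript missing from every sorted type was rarer still. Of 9721 transcripts at a mean of 5 CPM or more in whole blood cells, 2 had a mean under 1 CPM in each of the 6 types. ENSRNOT00000003794 had 2.68, 9.07, 10.5, 5.22 and 9.40 CPM in whole blood replicates 1 to 5. In neutrophils it ranged from 0.403 CPM through a median of 0.769 CPM to 1.47 CPM. Its mean was 0.158 CPM in monocytes, at most 0.310 CPM in the lymphocyte types, 0.397 CPM in spleen and 0.197 CPM in control liver. ENSRNOT00000033098 had 3.33, 3.73, 7.86, 5.23 and 8.33 CPM in whole blood replicates 1 to 5 and 0.251 to 0.784 CPM in neutrophils, with a median of 0.498 CPM. Its mean was 0.310 CPM in monocytes, at most 0.198 CPM in the lymphocyte types, 0.462 CPM in spleen and 0.0849 CPM in control liver. Both were chosen by these levels and carry no test. The first is also among the 13 above, while the second had a mean under 1 CPM over the 41 samples and was left out of that fit. In both, neutrophils had the highest mean of the sorted types, and whole blood replicate 1 was the lowest of the 5. The values are low, and the count moves with the limits: the nearest transcripts outside had 4.56 CPM in whole blood cells, or 1.01 CPM in the highest sorted type with 5.22 CPM in whole blood cells. With every sorted type under 2 CPM there were 5 such transcripts, with every one of the 36 sorted samples under 1 CPM there was 1, and with 10 CPM or more in whole blood cells there were 0. Lowering the whole blood limit to 2 CPM gave 9 and to 1 CPM gave 45, but transcripts so near to 1 CPM differ little from the limit set for the sorted types.

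**Figure D5:**
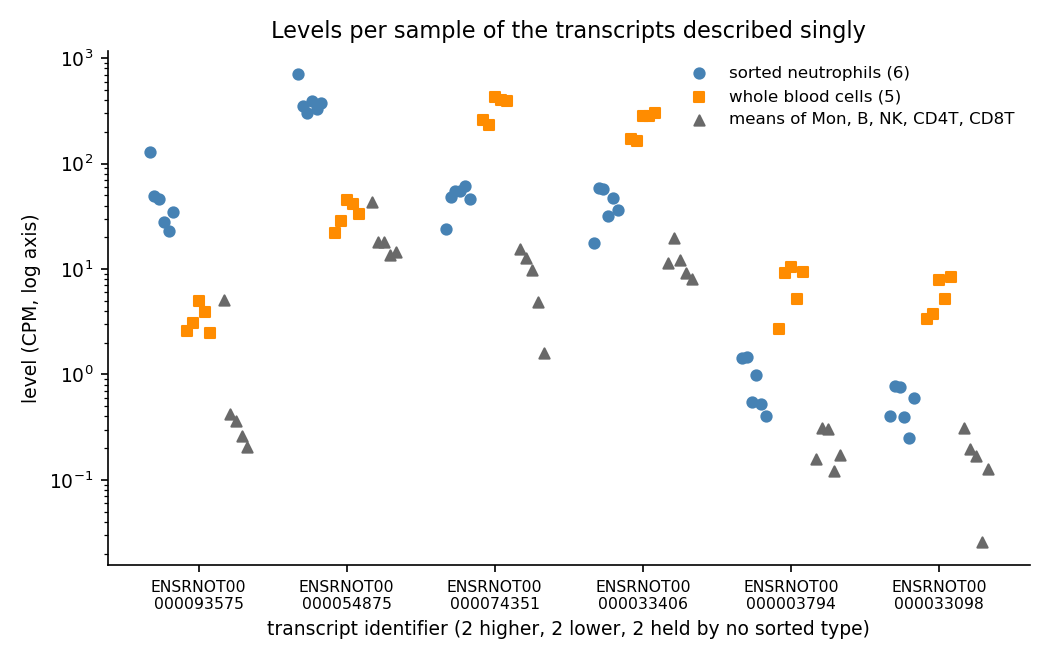
Levels of the 6 transcripts described singly (CPM, log axis), with neutrophil samples as blue circles, whole blood samples as orange squares and the means of the 5 other sorted types as grey triangles. Neutrophil and whole blood samples do not overlap for any of the 6, and neutrophil replicate 1 is the leftmost circle, the highest for the first 2 and the lowest for the next 2.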

How the data were processed

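RNA sequencing values of 11 samples (6 sorted neutrophil and 5 whole blood samples) were compared, with the other 30 sorted samples, 5 spleens and 5 control livers as references. The authors trimmed reads with PRINSEQ++, quantified transcripts with Salmon 1.6.0 on the Ensembl cDNA of Rnor_6.0 and imported them with tximport in R 4.1.3. The methods name the unit as TPM, but the deposited values sum to library-size totals and were used as estimated counts, of which 0% are whole (within 1e-06). In the 1062 transcripts above 0 in just 1 of 61 samples, values ran from 0.335 (5th percentile) to 30.5 (95th percentile), so a single read has no fixed worth, and no floor in reads was set. Salmon divides reads among transcripts of similar sequence, so levels of isoforms and paralogs are uncertain.

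Identifiers were matched to 47357 rat genes of GRCr8, with 0 of 31196 matched. Marker and pathway lists could therefore not be followed. Estimated counts were rounded and tested with edgeR 4.0.16 (R 4.3.3; quasi-likelihood, TMM, mean of at least 1 CPM, Benjamini-Hochberg adjusted p under 0.05) on the 11 samples, and on 41 for transcripts above every sorted type. Single values per sample were compared by exact permutation (scipy 1.17.1). The fits were tested on simulated data. Named transcripts had the 2 strongest rises and the 2 strongest falls with an adjusted p under 0.05, no overlap of samples and at least 50 CPM in the higher group, and the 2 highest whole blood means among transcripts held by no sorted type. At most 2 identifiers per direction are printed. Alternatives were other normalizations and filters, DESeq2 1.42.0, limma 3.58.1 on log2(CPM + 1) and log2(CPM + 0.1), a replicate block, and each sample left out. Members, groups and rules were chosen with earlier results of these data known, and the groups led by 1 type, the wider limits on neutrophil-led and unheld transcripts, and the fits without neutrophil replicates 1 and 2 and without a block on numbers 1 to 5 were added after seeing the data. Intervals on single counts were not given.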

Additional observations from a re-analysis of the deposited data

Results flagged for a closer look

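Of 36 groups of values tested, 4 had a sample far from the others, where chance flags about 5% of groups. Neutrophil replicate 5 had a total of 3429971 estimated counts, against 10154776 in the next sample. Leaving it out gave 6443 called transcripts, against 6583 with it. The 3 other values belong to neutrophil replicate 1. It held ENSRNOT00000093575 at 128 CPM, against 49.1 CPM in the next sample, and ENSRNOT00000054875 at 706 CPM, against 394 CPM in the next sample. It also held the 13 transcripts that whole blood cells have above every sorted type at a sum of 70.4 CPM, against 126 CPM in the next sample. Without it 16 transcripts lay above every sorted type, the earlier 15 among them.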

How the results depend on the processing

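Over 22 alternatives the comparison of neutrophils with whole blood cells called 5086 to 7430 transcripts, and 0 of the 6583 were called in the opposite direction under any of them. The fit of numbers 1 to 5 without a block is the same as that without neutrophil replicate 6, and it is counted under both names. Fewer were higher in neutrophils without a normalization factor (2240), with limma on log2(CPM + 1) (2223) and with limma on log2(CPM + 0.1) (2195), and higher transcripts then made up 33.2% to 34.2% of the calls. Mon-led transcripts kept a positive median (0.47 to 0.73) and B-led (-1.49 to -1.15), T-led (-1.07 to -0.73), lymphoid-shared (-0.96 to -0.72) and NK-led ones (-0.46 to -0.19) a negative one, while the median of even transcripts ran from -0.18 to 0.04. The lymphocyte share of the lower transcripts was 89.4% without a normalization factor, 88.5% at 5 CPM or more, 89.3% and 89.4% with limma at pseudocounts of 1 and 0.1, 93.6% in the fit of 41 samples and 90.1% to 92.8% with each sample left out. The replicate block over numbers 1 to 5 called 5086 transcripts, of which 2822 were higher and 2264 lower, with a lymphocyte share of 92.9%, and the same 10 samples without the block 5936. Same-numbered samples did not deviate together (r of -0.07 to 0.08). This cannot decide whether they share a rat, since spread between single samples could hide it.

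Transcripts of whole blood above every sorted type numbered 14 to 19 with single samples or replicate numbers left out and 38 with no filter. Transcripts held by no sorted type numbered 0 with sorted types under 0.5 CPM, 5 under 2 CPM, 1 with every sorted sample under 1 CPM, 0 at 10 CPM or more in whole blood cells, 1 with TMM effective library sizes, 9 and 45 at 2 CPM and 1 CPM or more in whole blood cells, and 2 to 3 with a whole blood sample left out. The whole blood to neutrophil percent of neutrophil-restricted transcripts was 0 with other types under 1%, 23.2% under 25% and 30.2% under 50%, and 0 to 28.5% with each sample left out. It rests on 4 of the 6 neutrophil samples, since just 1 of the 2 transcripts met the rule without replicate 1, 2, 3 or 4. It was 28.5% without replicate 2, which alone holds the transcript that then drops out, and 0 without replicate 1, 3 or 4. At 200 CPM or more no transcript met the rule. The difference in the share of the 10 most abundant transcripts was -6.26 percentage points for the 100 most abundant (exact permutation p = 0.0303) and -0.70 to 2.45 with each sample left out, reversed without neutrophil replicate 1 (-0.07) or 2 (-0.27) or whole blood replicate 3 (-0.58), 4 (-0.59) or 5 (-0.70). The cause of these shifts was not tested. Depth limits statements below about 1 CPM, most in neutrophil replicate 5.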
